A study of Mus musculus with 8 samples.

Results

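The serpin inhibitors of cytotoxic proteases were examined in naive CD8 T cells, the precursors of cytotoxic T cells that have not yet met antigen. They are Serpinb9, Serpinb6a, Serpinb6b, Serpinb1a, Serpina3f and Serpina3g, 6 of the 22609 genes in the deposited table and 6 of its 63 serpin symbols. They were picked by symbol as inhibitors of granule and lysosomal proteases, with values of the comparison of Brca1 Het with WT already known. Their Het and WT values are therefore a description, and no test on them supports a difference. The cells came from the spleens of C57BL/6 mice aged 3 months, with 4 libraries from Brca1 heterozygous (Het) animals, numbered 31, 53, 56 and 139, and 4 from wild type (WT) animals, numbered 45, 54, 57 and 65. Stranded mRNA libraries were sequenced. The labels say neither how the Brca1 allele was made nor that each library came from its own mouse, so spread and p-values are those between libraries. In bulk RNA, fewer cells of a type and less RNA per cell cannot be told apart.

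Serpins are inhibitors that work once: the protease cuts a bait loop of the serpin, the serpin springs shut and both stay bound to each other. Cytotoxic lymphocytes store granzymes, and proteases that leak from granules or lysosomes into the cytosol can kill the cell that made them. Serpins of clade B stay inside the cell and meet such proteases there. Serpina3g belongs to a mouse family best known from secreted inhibitors, but it acts inside the cell and is known for its part in the survival of memory CD8 T cells.

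Serpinb9 inhibits granzyme B, and mouse Serpinb6b inhibits granzyme A. Serpinb6a and Serpinb1a inhibit cathepsin G, and Serpinb1a also neutrophil elastase and proteinase 3. Serpina3g inhibits the lysosomal cathepsins B and L. Serpina3f is its neighbour and close relative. In the GENCODE M21 annotation of GRCm38, a later build than the mm9 named in the submitters' processing notes, Serpina3f (chr12:104214544-104221129) and Serpina3g (chr12:104236245-104241939) lay on the plus strand of chromosome 12, with 15.1 kb between them. The clade B genes lay on chromosome 13, Serpinb1a at chr13:32842092-32851185 on the minus strand and Serpinb6b at chr13:32965209-32979067 on the plus strand. Serpinb9 followed at chr13:33003250-33017957 on the plus strand and Serpinb6a at chr13:33917918-34002794 on the minus strand.

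Promoter sequences are shown for the members whose window held a letter pattern of interferon response, since several of these genes are known to respond to interferon. RefSeq windows of GRCm38.p6 were found for 5 of the 6 genes. The 250 bases before the start of transcription are printed for 4 of them, 5′ to 3′ on the strand of the gene. The capitals mark matches to the GAS pattern TTCNNNGAA, which STAT factors can bind, or to the ISRE core, which is GAAA, any 2 bases and GAAA again and which interferon regulatory factors can bind, on either strand. RefSeq and GENCODE place some starts differently, so a window need not end where the gene above begins.
Serpina3f, chr12:104214294-104214543, plus strand: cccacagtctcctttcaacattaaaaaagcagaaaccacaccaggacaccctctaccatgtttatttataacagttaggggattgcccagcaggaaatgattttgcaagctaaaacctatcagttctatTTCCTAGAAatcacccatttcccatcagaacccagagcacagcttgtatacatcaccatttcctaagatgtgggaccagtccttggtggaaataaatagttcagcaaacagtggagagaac
Serpina3g, chr12:104235897-104236146, plus strand: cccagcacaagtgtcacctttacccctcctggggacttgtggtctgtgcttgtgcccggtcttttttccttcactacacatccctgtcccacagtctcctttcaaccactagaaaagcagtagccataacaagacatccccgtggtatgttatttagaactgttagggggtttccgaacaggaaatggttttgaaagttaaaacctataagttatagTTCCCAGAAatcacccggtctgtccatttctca
Serpinb9, chr13:33004291-33004540, plus strand: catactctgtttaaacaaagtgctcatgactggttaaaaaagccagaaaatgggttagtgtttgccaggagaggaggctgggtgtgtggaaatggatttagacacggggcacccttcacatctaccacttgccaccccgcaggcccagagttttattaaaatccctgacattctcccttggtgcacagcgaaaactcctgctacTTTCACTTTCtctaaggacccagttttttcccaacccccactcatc
Serpinb6a, chr13:34002795-34003044, minus strand: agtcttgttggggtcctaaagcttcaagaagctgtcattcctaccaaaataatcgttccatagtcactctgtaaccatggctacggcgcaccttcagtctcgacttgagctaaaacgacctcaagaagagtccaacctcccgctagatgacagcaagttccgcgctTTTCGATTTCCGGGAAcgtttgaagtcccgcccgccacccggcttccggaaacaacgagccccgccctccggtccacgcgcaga

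Serpina3f and Serpina3g each held 1 GAS match, and over an alignable stretch of 144 bases around it their promoters were 82.6% identical. Serpinb9 held 1 ISRE core on the minus strand. Serpinb6a held 1 of each, overlapping in the capitals shown, while a second Serpinb6a window, from another start, held neither. The Serpinb6b window held neither pattern, which says only that these letters are not in it. Of all 32851 promoter windows, 7.02% held the GAS pattern and 2.98% the ISRE core. The NF-kB pattern, GGG and CC with any 5 bases between them, found in the Serpina3f and Serpina3g windows shown, was in 45.8% of all windows. A second Serpina3f window, from a start further downstream, held the same GAS match and no NF-kB match. A match describes the letters and is not evidence that a factor binds.

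The libraries were those of CD8 T cells by their defining genes. Cd8a had normalized read counts of 45658 to 50265.2 in Het and 40591 to 46876.7 in WT libraries. No gene of the CD8 T cell list (7 genes) or the naive T cell list (7 genes) was at 0 in any library. The B cell and myeloid lists also had no gene at 0, so this alone does not tell cell types apart. Brca1 was at 126.7 to 174.5 in Het and at 148.6 to 208.1 in WT libraries, which overlap, so it gives no check of the genotype labels. Totals were equal by the authors' normalization. Traces of depth remained at low values. The number of different values up to 100, an estimate of the reads behind a value of 100, was 74 to 121 in Het and 106 to 128 in WT libraries. Genes above 0 numbered 13863 to 14656 in Het and 15358 to 15569 in WT libraries, and the lowest value above 0 was 0.9 to 1.9 in Het and 0.2 to 0.3 in WT libraries, both without overlap between genotypes.

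All 6 serpins were detected in every library and passed the filter on low values. Per kilobase of their longest coding transcript, Serpinb6a, Serpinb9 and Serpinb6b were the highest members and Serpina3f the lowest. In Het libraries the normalized read count per kilobase was 349 ± 97.3 for Serpinb6a, 336 ± 17.4 for Serpinb9, 298 ± 30.6 for Serpinb6b, 237 ± 132 for Serpina3g, 151 ± 119 for Serpinb1a and 20.8 ± 8.18 for Serpina3f (SD, n = 4). In WT libraries the same per kilobase level was 273 ± 28.7 for Serpinb6a, 260 ± 33.3 for Serpinb6b, 259 ± 13.6 for Serpinb9, 106 ± 14.3 for Serpina3g, 104 ± 38.5 for Serpinb1a and 4.59 ± 2.74 for Serpina3f (SD, n = 4). Serpinb6a, Serpinb9 and Serpinb6b did not differ beyond their spread between libraries in either genotype, nor did Serpina3g and Serpinb1a. Compared within a library, Serpina3g was above Serpinb1a in each Het library, while the order varied among WT libraries. In Het libraries the spread of Serpina3g was so wide that it also reached the 3 highest. The length is that of the annotation named above, since the gene model used for counting is not given in the sources used here.

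Serpinb9, the granzyme B inhibitor, had the highest normalized read count of the 6 in every library, not divided by length, and varied little within a genotype. Of all tested genes, 55.0% had a lower mean. Its normalized read count was 1216.3, 1143.1, 1215.6 and 1092.1 in Het 31, 53, 56 and 139, against 875.6, 878.8, 868.7 and 968.4 in WT 45, 54, 57 and 65. Each Het library was above each WT library. The log2 difference, Het minus WT, was 0.38 (SE 0.09, 95% interval 0.17 to 0.58), with means of 1167 ± 60.5 in Het and 898 ± 47.2 in WT libraries (SD, n = 4 each). The spread of Serpinb9 within a genotype was 0.07 on the log2 scale, and only 3.13% of the 12048 tested genes had a smaller one, where the median was 0.23. Leaving out any 1 library kept its difference between 0.36 and 0.41.

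Serpina3f, the low member of the pair on chromosome 12, also had no overlap. Its normalized read count was 67.8, 31.8, 56.8 and 31.0 in Het 31, 53, 56 and 139, against 5.1, 17.7, 13.1 and 5.4 in WT 45, 54, 57 and 65. The log2 difference was 2.17 (SE 0.51, 95% interval 1.04 to 3.30) and the ratio of the means 4.54. These values rest on few reads, estimated from the rank of each value among the different values of its library. That estimate was 86, 36, 43 and 28 reads in Het 31, 53, 56 and 139, against 12, 35, 22 and 11 reads in WT 45, 54, 57 and 65, which overlap before depth is taken into account. Scaled to the reads behind a value of 100, the estimate was 32.9 to 71.1 in Het and 8.59 to 28 in WT libraries, without overlap. The scaled estimate averaged 49.0 ± 18.7 in Het and 16.9 ± 8.77 in WT libraries (SD, n = 4 each), a ratio of 2.90. That is below the ratio of 4.54 from the deposited values.

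Serpina3g, the inhibitor of cathepsins B and L, was high in 3 of the 4 Het libraries. Its normalized read count was 746, 407.8, 167.4 and 388 in Het 31, 53, 56 and 139, against 168.2, 220.4, 204 and 169.9 in WT 45, 54, 57 and 65. Het 56 was the lowest of all 8 libraries, so the genotypes overlapped. The log2 difference was 0.98 (SE 0.36, 95% interval 0.18 to 1.79). It was 1.37 without Het 56, the only library whose omission took a member past the limma threshold (adjusted p = 0.0384), and 0.65 without Het 31. The neighbours did not move together in every library: the ratio of Serpina3g to Serpina3f was 11.0, 12.8, 2.95 and 12.5 in Het 31, 53, 56 and 139, against 33.0, 12.5, 15.6 and 31.5 in WT 45, 54, 57 and 65. Serpina3f was the second highest in Het 56, where Serpina3g was at its lowest.

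**Figure D1:**
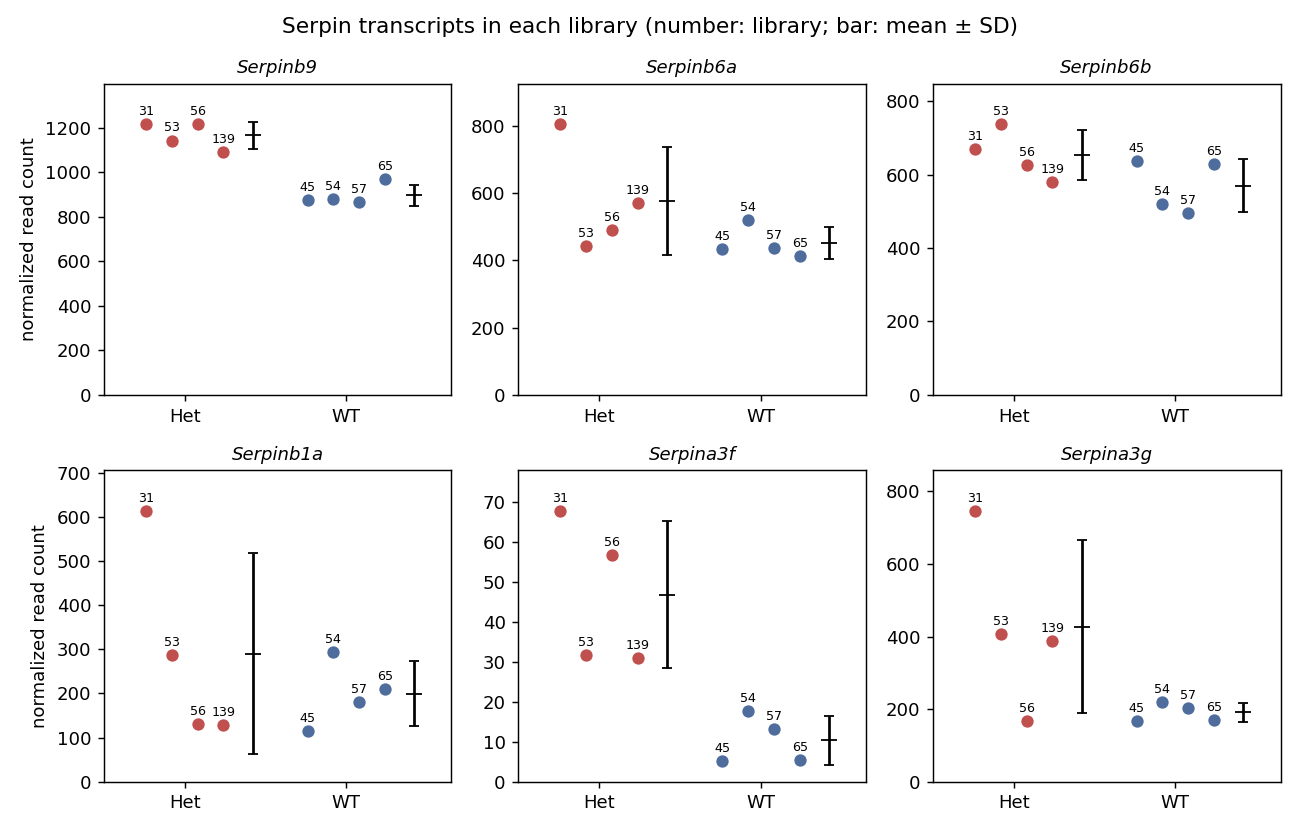
Normalized read count (vertical axis, linear, from 0) of the 6 serpin genes in the 4 Het and 4 WT libraries, each point a library with its number, and the bar the mean ± SD. Serpinb9 lies at 1092.1 to 1216.3 in Het, above 868.7 to 968.4 in WT, while Serpina3g ranges over 167.4 to 746 in Het and 168.2 to 220.4 in WT.

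Serpinb6a and Serpinb6b, close paralogs, differed from each other in their pattern. Serpinb6a had normalized read counts of 804.4, 441.2, 490.6 and 571.4 in Het 31, 53, 56 and 139, against 433.2, 520.4, 436.9 and 413.5 in WT 45, 54, 57 and 65. Het 31 stood highest and Het 139 was also above each WT library, while Het 53 and 56 lay within the WT range. Its log2 difference was 0.32 (SE 0.18, 95% interval -0.09 to 0.73) and 0.15 without Het 31. Serpinb6b, the granzyme A inhibitor, was at 670.6, 737, 626.4 and 579.3 in Het 31, 53, 56 and 139, against 636.4, 519.5, 494.9 and 628.1 in WT 45, 54, 57 and 65. Its genotypes overlapped as well, with a log2 difference of 0.20 (SE 0.13, 95% interval -0.09 to 0.49). Serpinb6a was above Serpinb6b in 1 Het and 1 WT library, Het 31 and WT 54, and below it in the other 6, on counts not divided by length.

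Serpinb1a, the inhibitor of neutrophil elastase, varied widely in both genotypes, most in Het. Its normalized read count was 613.1, 286.6, 129.6 and 129.2 in Het 31, 53, 56 and 139, against 115, 293.1, 179.8 and 209.2 in WT 45, 54, 57 and 65. Het 31 was far above the rest, and the other 3 Het libraries lay within the WT range. The within-genotype spread was 0.85 on the log2 scale, and 91.6% of tested genes had a smaller one. By genotype it was 1.07 in Het and 0.56 in WT libraries, where Serpina3f had a wider one (0.81). The log2 difference was 0.30 (SE 0.48, 95% interval -0.75 to 1.35), and it was -0.16 without Het 31, 0.07 without WT 45 and 0.59 without Het 139.

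Across the 6 members, the log2 difference was above 0 in 6 of 6, with a median of 0.35, against a median of 0.01 and 52.0% above 0 over all 12048 tested genes. By limma with Benjamini-Hochberg adjustment, 0 of the 6 passed the adjusted threshold of 0.05, and 3 (Serpinb9, Serpina3f and Serpina3g) had an unadjusted p under 0.05. Over all tested genes 0.515% passed the adjusted threshold, 0.0% as higher in Het (10 of 85 calls were higher in Het with no trend in the fit), and 8.19% had an unadjusted p under 0.05, 3.79% as higher in Het. The Het libraries were all above the WT libraries in 2 members, and in 2.13% of all tested genes. Since the members were picked with this comparison known, nothing is read from these counts.

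**Figure D2:**
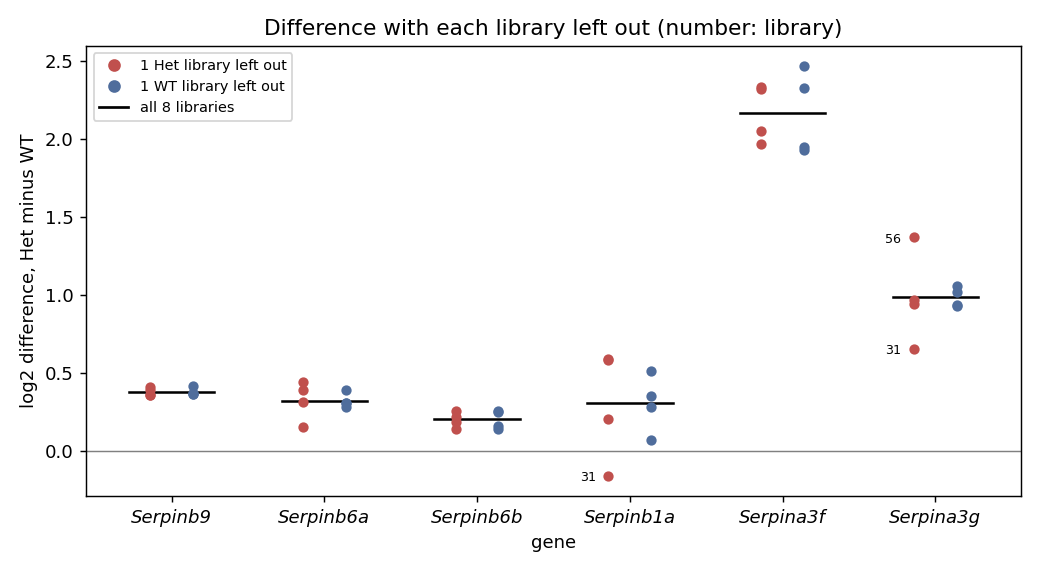
Log2 difference, Het minus WT (vertical axis), of each serpin gene with 1 library left out: red points leave out a Het library, blue points a WT library, and the black line uses all 8. Serpinb9 stays between 0.36 and 0.41, Serpina3g ranges over 0.65 to 1.37, and Serpinb1a falls below 0, to -0.16, without Het 31.

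The libraries also differed in markers of other blood cells, and several members were high in the same libraries. The B cell list (9 genes, none at 0 in any library) summed to 18980, 8995, 3749 and 5577 in Het 31, 53, 56 and 139, against 3163, 8115, 4781 and 7360 in WT 45, 54, 57 and 65. Of the 9 genes, 9 were higher in Het and 0 passed the limma test (median log2 difference 0.43, lowest adjusted p = 0.718). Serpinb1a was highest in Het 31 and lowest in WT 45, as was the B cell sum at its own extremes, and Het 53 and WT 54 came next to Het 31 in both. The part of B cells in the Serpinb1a values was not tested.

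The myeloid list (10 genes found, none at 0) summed to 5706, 3836, 1521 and 4148 in Het 31, 53, 56 and 139, against 1851, 3450, 2308 and 2385 in WT 45, 54, 57 and 65. Het 31, 53 and 139 held the 3 highest myeloid sums and the 3 highest Serpina3g values, and Het 56 was the lowest of the 8 in both. By summed level, these 3 highest libraries were not particular to the myeloid list. The NK cell list (11 genes, of which 1 was at 0 in every library) summed to 8880, 4548, 2731 and 4544 in Het 31, 53, 56 and 139, against 2327, 3715, 3272 and 3873 in WT 45, 54, 57 and 65. The same 3 Het libraries were highest in this sum, but by mean log2 level WT 65 (7.18) was above Het 139 (7.12). Myeloid and NK cell genes were higher in Het in 8 of 9 and 9 of 10 tested genes (median log2 difference 0.42 and 0.85), with 0 past the limma test in either list (lowest adjusted p = 0.564 and 0.601). The part of these cells in the Serpina3g values was not tested. Serpinb9 and Serpina3f did not go with these lists in Het 56, where the B cell, myeloid and NK sums were the lowest of the Het libraries: Serpinb9 was 1215.6 there, next to 1216.3 in Het 31, and Serpina3f 56.8.

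Interferon response genes, a list of 25, were higher in Het in 25 of 25 genes, with 0 past the limma test (median log2 difference 0.32, lowest adjusted p = 0.489). Their mean log2 level was 10.76, 10.69, 10.80 and 11.70 in Het 31, 53, 56 and 139, against 10.65, 10.33, 10.96 and 10.34 in WT 45, 54, 57 and 65. Het 139 was the highest, and in it Serpina3f, at 31.0, and Serpinb9, at 1092.1, were the lowest of the Het libraries. The part of interferon response in the Serpina3f and Serpinb9 values was not tested. Memory CD8 T cell genes had a mean log2 level of 10.17, 9.81, 9.33 and 10.06 in Het 31, 53, 56 and 139, against 9.28, 9.52, 9.60 and 9.71 in WT 45, 54, 57 and 65. By this mean, Het 31, 53 and 139, the 3 libraries with the most Serpina3g, were the 3 highest here too. By summed level they were not: Het 31, at 41130, was below WT 65, at 44127. Of the memory CD8 T cell genes, 10 of 14 were higher in Het and 0 passed the limma test (lowest adjusted p = 0.250).

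**Figure D3:**
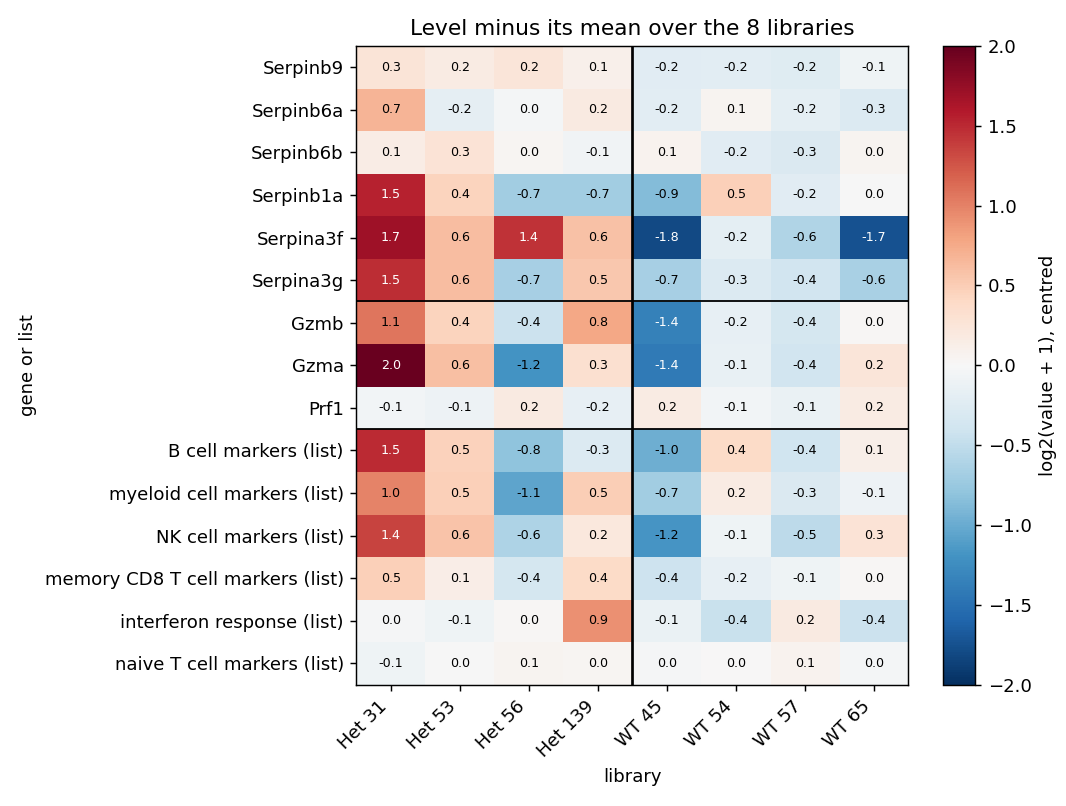
Each row is a serpin gene, a granule gene or the mean over a marker list, each column a library, and the colour and number give log2(value + 1) minus the row's mean over the 8 libraries. Serpinb1a is highest in Het 31 with the B cell list, whereas Serpinb9 is about as high in Het 56 as in Het 31.

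Genes most alike in pattern were found by the root mean square difference between log2 values centred over the 8 libraries, among 10225 genes with a mean of at least 50. Nearest to Serpinb9 were Klhl12 (0.07), Samsn1 (0.07) and Scfd1 (0.09), and nearest to Serpinb6b were AA987161 (0.04), Gm13157 (0.05) and Fpgt (0.06). Plxnb2 (0.08), Tk2 (0.10) and AI413582 (0.10) were nearest to Serpinb6a. Cd22 was nearest to Serpinb1a (0.15), followed by Sykb (0.21) and Faim3 (0.23), and Cd22 is 1 of the 9 genes of the B cell list. Nearest to Serpina3g were 2010001M09Rik (0.21), Plek (0.25) and Rnase6 (0.26). Serpina3f was too low for this comparison. This measure depends on how widely a gene varies as well as on the shape of its pattern.

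The proteases these serpins act on were not used to choose the members, but their lists too were written with earlier results of these data known. Of these proteases, 0 passed the limma test. Gzmb, granzyme B, was at 611.3, 397, 216.1 and 502 in Het 31, 53, 56 and 139, against 113.6, 259.3, 228.8 and 296.3 in WT 45, 54, 57 and 65 (log2 difference 0.93, SE 0.36, limma adjusted p = 0.528). Het 56 lay inside the WT range. Gzma, granzyme A, was at 3452.4, 1327.2, 382.8 and 1090 in Het 31, 53, 56 and 139, against 329.1, 792.6, 671.3 and 1042.1 in WT 45, 54, 57 and 65 (log2 difference 0.85, SE 0.56, limma adjusted p = 0.702). Gzma is also in the NK cell list and was highest in the same library as that list's sum. Prf1, the pore former perforin, averaged 2870 ± 308 in Het and 3022 ± 312 in WT libraries (SD, n = 4 each, limma adjusted p = 0.844). The ratio of Serpinb9 to Gzmb ranged over 1.99 to 5.63 in Het and 3.27 to 7.71 in WT libraries, on counts not divided by length. In the granule list 5 of 11 genes were at 0 in every library, and the 5 tested genes split into 3 above and 2 below WT.

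Of 9 cathepsin genes tested, 0 passed the limma test, and their means over the 8 libraries ranged from 24.1 for Ctsk to 8673 for Ctsw. Ctsb, cathepsin B, averaged 5725 ± 1171 in Het and 4851 ± 527 in WT libraries (log2 difference 0.22, limma adjusted p = 0.690). Ctss, cathepsin S of antigen presenting cells, averaged 8225 ± 2476 in Het and 6826 ± 634 in WT libraries (SD, n = 4 each, limma adjusted p = 0.755). Ctsw, a cathepsin of cytotoxic lymphocytes, averaged 8548 ± 1082 in Het and 8798 ± 906 in WT libraries. Ctsl, cathepsin L, was at 615.4 to 693.9 in Het and 617.9 to 682.1 in WT libraries. Of these 9 genes, 5 lay above WT and 4 below, with a median log2 difference of 0.03.

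The neutrophil proteases that Serpinb1a and Serpinb6a inhibit were low. Ctsg, cathepsin G, was at 1.9 to 24.4 in Het and 0 to 2.4 in WT libraries, and Elane, neutrophil elastase, at 0 to 29.9 in Het and 0 to 9.1 in WT libraries, both below the filter. The neutrophil list summed to 167.4 to 580.6 in Het and 180.7 to 565 in WT libraries. This sum was lowest in Het 31, where Serpinb1a was highest, but by mean log2 level WT 45 (3.64) was below Het 31 (3.84). The neutrophil protease list ran the other way in its sum. With Mpo, myeloperoxidase, and Hp, haptoglobin, which are not active proteases, it held 5 genes and summed to 153.4, 57.7, 34.5 and 148.5 in Het 31, 53, 56 and 139, against 61.7, 37.4, 46.1 and 21.1 in WT 45, 54, 57 and 65. Its sum was thus highest in Het 31, as were Ctsg, Mpo (68.4) and Hp (46.7). Elane was highest in Het 139 (29.9, against 4.1 in Het 31) and Prtn3, proteinase 3, in Het 56 (11.1, against 9.8 in Het 31). The mean log2 level of the list was highest in Het 139 (4.74, against 4.43 in Het 31). The part of neutrophils in the Serpinb1a values was not tested.

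Granule partners (9 tested genes, 5 higher and 4 lower in Het) included Srgn, the proteoglycan that packs granzymes, at 10652 ± 1234 in Het and 9645 ± 800 in WT libraries. Nkg7, a granule membrane protein, averaged 9919 ± 1945 in Het and 9064 ± 1220 in WT libraries. The cystatin inhibitors, another family that blocks cathepsins, had a log2 difference above 0 in 3 of 3 tested genes, though the plain mean of Cst7 was lower in Het. Cst7, cystatin F, which restrains cathepsins inside granules, averaged 3121 ± 572 in Het and 3143 ± 976 in WT libraries (SD, n = 4 each). Cstb, the cytosolic cystatin B, was at 530.9 to 607.2 in Het and 429.1 to 525.1 in WT libraries, without overlap (log2 difference 0.21, limma adjusted p = 0.656).

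Of the 57 other serpin symbols, only 10 reached the filter and 19 of all 63 were at 0 in every library. The 6 members made up 68.5 to 79.9% of the summed serpin signal in Het and 60.5 to 73.9% in WT libraries. Serpini1, neuroserpin, made up most of the remainder, at 741.5 to 1015.1 in Het and 712.5 to 846.7 in WT libraries (log2 difference 0.16, limma adjusted p = 0.738). Serpinb9b, the one gene that shares 50 base windows with Serpinb9, was at 41.4, 31.8, 12.4 and 35.9 in Het 31, 53, 56 and 139, against 10.6, 14, 7.8 and 20.9 in WT 45, 54, 57 and 65. Het 56 again lay inside the WT range, and the log2 difference of 1.09 did not pass (SE 0.50, limma adjusted p = 0.620). Like those of Serpina3f, the Serpinb9b values lie in the low range where traces of depth remained.

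Serping1, the C1 inhibitor, and Serpinf1, an inhibitor of blood vessel growth, were the only other serpins with an unadjusted p under 0.05. Serping1 was at 11.1 to 25.9 in Het and 22.4 to 66.2 in WT libraries, and Serpinf1 at 4.1 to 10.4 in Het and 9.9 to 49.7 in WT libraries. Both were lower in Het (log2 difference -1.34 and -1.83, limma adjusted p = 0.441 for each). Stroma markers (8 genes, none at 0) were lower in Het in 6 of 8, with a mean log2 level of 6.16 to 7.10 in Het and 7.48 to 9.15 in WT libraries and a summed level of 5845 to 7672 in Het and 6477 to 11607 in WT libraries. Of the 8, Dcn, a proteoglycan of connective tissue, passed the limma test as lower in Het (adjusted p = 0.00536). The part of stroma in the values of these serpins was not tested.

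Over all lists of serpins, granule genes, cathepsins, neutrophil proteases and cystatins, 38 of 94 genes found were tested and 0 passed limma's adjusted threshold, which 0.515% of all tested genes did. An unadjusted p under 0.05 was reached by 3 of the 38 (Gzmb, Serping1 and Serpinf1), against 8.19% of all tested genes. The lowest adjusted p was 0.441.

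**Figure D4:**
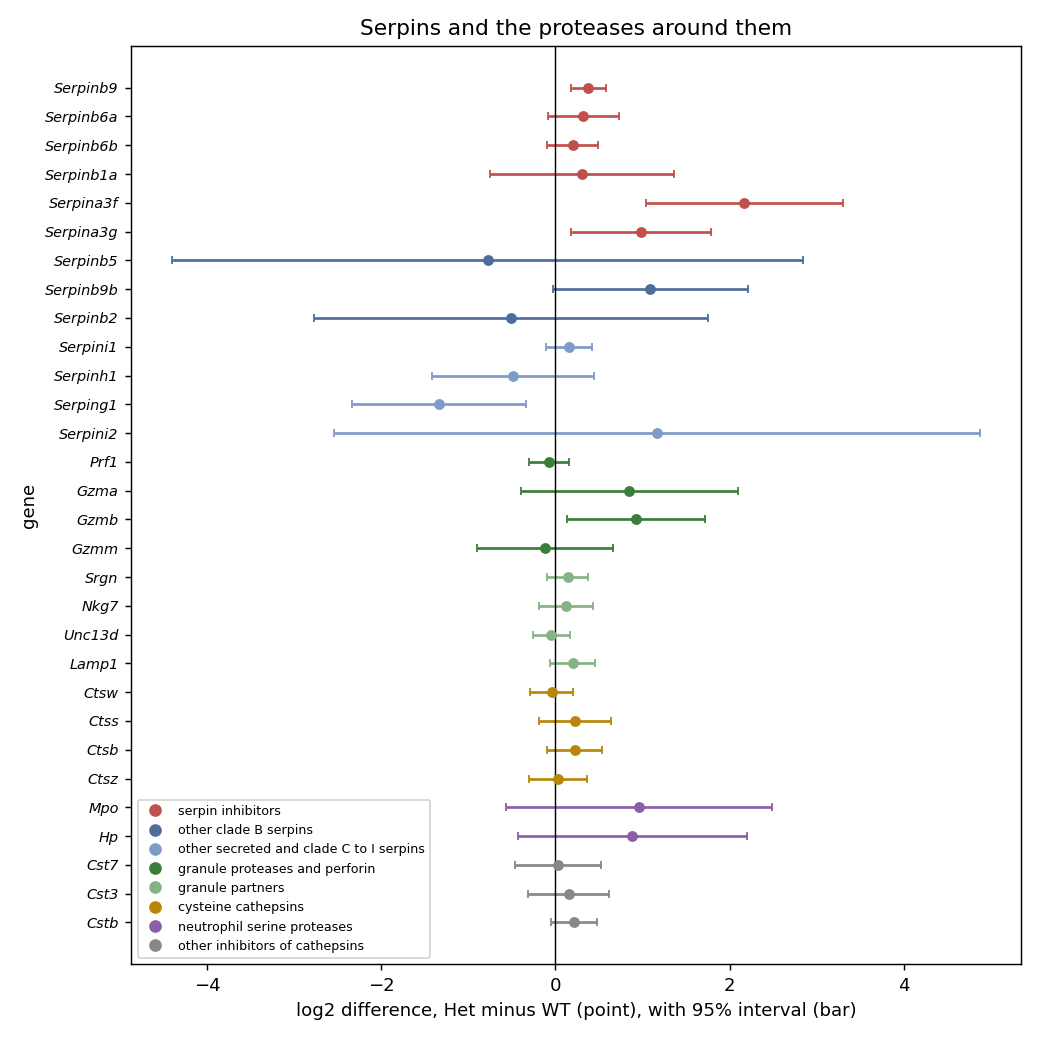
Log2 difference, Het minus WT (horizontal axis, points), with its 95% interval (bars) for the 6 serpin inhibitors in red and the tested genes named from the other lists below. Perforin (Prf1, -0.07), Ctsw (-0.04) and Ctsz (0.03) lie near 0. Ctsb and Ctss, at 0.22 each, lie next to the member Serpinb6b, at 0.20. The point of Serpina3f, at 2.17, is the farthest to the right.

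Part of the transcript sequence of the members is shared with relatives, and the handling of such reads in the authors' counting is not given in the sources used here. Of the 50 base windows of the longest coding transcript, 16.0% in Serpina3g and 10.7% in Serpina3f also occurred in another gene. The share was 3.42% in Serpinb1a, 3.12% in Serpinb6b, 2.68% in Serpinb6a and 0.380% in Serpinb9. Serpina3f shared most with Serpina3g (6.00%), whose count was 2.95 to 12.8 times as high in Het and 12.5 to 33.0 times in WT libraries. The part of such shared reads in the Serpina3f values was not tested. Serpina3g shared most with Serpina3h (8.67%) and Serpina3f (6.67%). Serpina3h was at 0 in the 4 Het libraries and at 0 to 11.4 in WT libraries. The values of Serpina3f and Serpina3g are the least certain of the 6 in this respect, and that of Serpinb9 the most certain.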

How the data were processed

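Gene expression in 8 mRNA libraries was given by the authors as normalized read counts, treated here as a signal without known depth, to 1 decimal. CASAVA, TopHat2, HTSeq, DESeq and mm9 are named, without role or version, per the submitters' processing notes. How counts were normalized and whether strand was used in counting is not given in these sources. Totals were 27488636.8 to 27489670.0, and among the 10000 highest ranks the sorted values of the libraries differed by at most 2.32%, so the libraries share 1 distribution and differences in total RNA cannot be seen. The lowest value above 0 was 0.9 to 1.9 in Het and 0.2 to 0.3 in WT libraries. All 8 value columns were used.

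Genes with a mean of at least 10 (12048) were tested, Het minus WT, with limma 3.58.1 (R 4.3.3) on log2(value + 1), with a trend on mean level, 2-sided, Benjamini-Hochberg adjustment over all of them and a threshold of 0.05. The added 1 shrinks the fold changes of low genes. The log2 difference of Serpina3f is still not a lower bound, at 2.17 here and 1.54 on scaled estimated reads. The fit was tested on simulated data. Standard errors and intervals cover the spread between libraries, which limma draws towards the trend over all genes. They are thus not those of each gene's own spread alone.

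The members and lists were chosen with earlier results of these data known. Of 199 list entries, 194 were found by symbol. Named were up to 4 genes of highest mean in each list, any past the threshold, and the 3 genes most alike to each member. Named outside this rule, after their values were seen, were Ctsl, Ctsk, Prtn3, Serpinf1, Serpina12, Serpinb3b, and Pnlip with its list. Brca1 was named as the gene of the genotype. Promoters came from RefSeq (GRCm38.p6) and transcripts and positions from GENCODE M21, and promoters were aligned with Biopython 1.88. Alternatives were the pseudocount, the filter, factors from a trimmed mean of M values (TMM), no trend, and leaving out each library.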

Additional observations from a re-analysis of the deposited data

Results flagged for a closer look

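Dixon's test at the 95% level was applied to the 4 libraries of each genotype, for the 6 serpin genes and the named serpin and protease genes with a mean of at least 10. It marked 2 of 60 such sets (3.33%), where about 1 in 20 would be marked by chance. Serpinb9 was at 968.4 in WT 65, above 868.7 to 878.8 in the other WT libraries and below each Het library. Serpinb2, a clade B serpin of macrophages, was at 30.1 in Het 56, above 2.1 to 5.6 in the other Het libraries.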

How the results depend on the processing

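Leaving out 1 library in turn gave 11 to 91 changed genes over the whole table, against 62 with all 8, and 0 to 1 changed members. The 1 was Serpina3g without Het 56, at a log2 difference of 1.37. The number of changed genes was 123 with any value above 0 tested and 14 with a mean of at least 50. With all 8 libraries 0 of the 62 were higher in Het, against 9 of 123 with any value above 0, 10 of 85 with no trend, 3 of 91 without Het 56 and 1 of 16 without WT 65. Of the other serpins and proteases 0 passed under each alternative. Serpinb1a reversed without Het 31, to -0.16, and reached 0.59 without Het 139, while Serpinb9, Serpina3f, Serpinb6a and Serpinb6b kept their sign and moved by less than their spread under each alternative run. For Serpina3f, too low for the filter of 50, the difference was 1.54 on estimated reads scaled to the reads behind a value of 100, an alternative chosen after seeing the data. No paired analysis was made, since the genotypes share no library number and the labels used here give no other pairing. Depth limits Serpina3f most, with 11 to 86 estimated reads per library.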

Other observations

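Some serpins of other tissues were high in WT 45 and WT 54. Serpinb5, maspin of skin and other epithelia, was at 1.5 to 15 in Het libraries, against 208.1, 54.7, 0 and 0 in WT 45, 54, 57 and 65. Serpinb3b was at 0 to 3.2 in Het libraries, against 33, 8.1, 0 and 0 in WT 45, 54, 57 and 65, and Serpina3b and Serpina12 were likewise highest in WT 45 and 54. The high levels were thus in 2 of the 4 WT libraries.

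Serpini2, an inhibitor known from pancreas, was at 0, 57.8, 0 and 77.8 in Het 31, 53, 56 and 139, against 0, 8.8, 17.8 and 0 in WT 45, 54, 57 and 65. A list of 12 genes for digestive enzymes and cofactors of pancreas acinar cells, written after the Serpini2 values had been seen, was highest in the same 4 libraries. Its summed level was 288, 58696, 2362 and 60188 in Het 31, 53, 56 and 139, against 17.1, 21811, 31989 and 51.9 in WT 45, 54, 57 and 65. Pnlip, pancreatic lipase, reached 9646.2 in Het 53 and 11290.4 in Het 139, above each of the 6 serpin genes, and was at 0.4 in WT 45. None of the 12 passed the limma test between genotypes (0 at an unadjusted p under 0.05, lowest adjusted p = 0.713). Serpinb9 was 1143.1 and 1092.1 in Het 53 and 139. It was 1216.3 and 1215.6 in Het 31 and 56, where the list was lower. In WT 54 and 57 Serpinb9 was 878.8 and 868.7, against 875.6 and 968.4 in WT 45 and 65. The part of pancreas RNA in the Serpinb9 values was not tested.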
